A study of Homo sapiens with 3 samples.

Results

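Estradiol and tamoxifen were compared directly in the basal-type human breast cancer line MDA-MB-231, as the deposited value on the tamoxifen array minus that on the estradiol array. The comparison rests on 2 of the 3 arrays of the series, and the vehicle array entered no difference. It served only in an alternative reading of brightness. Cells spent 4 h in medium whose 10% serum had been stripped with charcoal and then 3 h with either ligand at 1 µM. Each group is 1 culture of 1 cell line with 1 array. Of 54675 probe sets, the short-oligonucleotide groups that each report a transcript, 41097 have exactly 1 gene symbol and were taken. They name 19775 genes, of which 13559 had a probe set above a brightness floor, read from the precision with which the numbers were stored. With 1 array a side there is no replicate spread, no test and no interval, so sizes are given, together with whether the probe sets of 1 gene showed the same difference. Probe sets of 1 gene share the array and the RNA, so their agreement says nothing about another culture.

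Estradiol is the main natural estrogen, a steroid that binds the estrogen receptors ESR1 and ESR2. These are transcription factors that bind DNA directly or through other factors. Tamoxifen is a non-steroidal ligand of the same receptors and is called a selective modulator because it blocks them in breast and activates them in some other tissues. MDA-MB-231 is commonly used as a line without ESR1 protein, so that any ligand response in it is usually discussed through other receptors, such as the membrane receptor GPER1.

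The values are log2 numbers centred, probe set by probe set, on a baseline that is not stated. A value above 0 is above that baseline, and levels of different genes cannot be set against each other. The log base and the direction, higher meaning more RNA, were assumed. Of the basal markers, 13 of 14 genes were above the floor, VIM and CD44 among them, against 8 of 13 luminal, 2 of 7 leukocyte and 6 of 9 fibroblast or endothelial markers with a probe set of their own. The floor let through 24 of 107 olfactory receptor probe sets (22.4%), genes that breast cells should not use, and 108 of 121 for ribosomal proteins (89.3%), so a dim marker above it need not be expressed. PTPRC, the pan-leukocyte phosphatase, was higher by 0.62 in the 1 of its 5 probe sets above the floor and lower in the other 4. Differences of the basal markers had a median of -0.03 and none passed 1.5-fold. GAPDH, a glycolytic enzyme, differed by -0.05 and ACTB, cytoskeletal actin, by -0.29.

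Control transcripts probed at several positions differed between the arrays. For actin, the probe set nearest the 5′ end was lower by -0.996 on the tamoxifen array, the middle one by -0.42 and the one at the 3′ end by -0.05. In 9 of 10 such series of control probe sets the 5′ difference lay below the 3′ difference. The gap had a median of -0.26 and a range of -0.94 to 0.18. The 10 series cover fewer transcripts, since each bacterial control RNA has more than 1 series. For lys, 1 of these RNAs, the gap was -0.27 in 1 series and 0.18 in another. The poly-A spikes, bacterial RNAs added to the sample, had a median difference of -0.17 over 24 probe sets, and the hybridisation spikes -0.12 over 18. The controls were thus mostly lower on the tamoxifen array, and more so toward the 5′ end. Their part in the differences given below was not tested. In bulk RNA, fewer cells with a transcript and less of it per cell cannot be told apart.

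**Figure D1:**
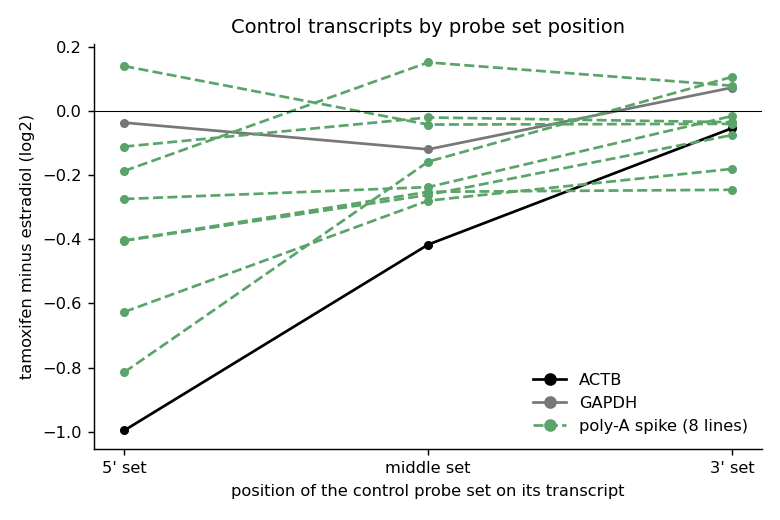
Difference of the tamoxifen array from the estradiol array (log2, vertical) for control transcripts probed at their 5′ end, middle and 3′ end (horizontal). Each line is 1 series of control probe sets, and each bacterial spike has more than 1 line. Actin goes from -0.996 at the 5′ end to -0.05 at the 3′ end, and 9 of 10 lines start lower than they end.

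More genes were lower with tamoxifen than higher, and the lower ones went further. At least 1.5-fold lower were 354 genes, 2.61% of the 13559, and 276 were at least 1.5-fold higher, 2.04%. At 2-fold the counts were 45 lower and 19 higher. The largest difference downward was that of ALPP, placental alkaline phosphatase, at -2.07, and the largest upward that of ZNF655, a zinc finger protein, at 1.34. ZNF655 takes that value from its brightest probe set, and its 3 probe sets ranged from -0.32 to 1.34. Over all genes the median difference was -0.02 and the SD 0.28, so most genes lay close together on both arrays. Of the 13559 genes, 7173 lay below 0 and 6375 above it, the background for the counts of signs in the lists below. In the brightest band 2.24% of 7490 genes were lower and 1.72% higher, and in the dimmer band kept 3.06% and 2.42% of 6069.

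The lower genes mostly stood above the baseline with estradiol. Their median value was 0.47 with estradiol and -0.26 with tamoxifen. Estradiol values were above 0 for 290 of the 354, and the 2 arrays lay on opposite sides of 0 for 180. For 110 genes both arrays were above 0 and for 64 both were below. The higher genes showed the mirror pattern, with medians of -0.40 for estradiol and 0.31 for tamoxifen, and with 165 of 276 on opposite sides. Over all genes above the floor the column medians were -0.01 for estradiol and -0.02 for tamoxifen. Choosing genes by the difference between 2 columns centred near 0 by itself favours such positions, so they are no separate result. Because the baseline is unknown, they also do not say which ligand moved a gene.

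Probe sets of the same gene often did not share a difference of this size. Among 6133 genes with 2 or more probe sets above the floor, 439 had at least 1 probe set 1.5-fold lower, and in 201 of these (45.8%) all probe sets were lower. Every probe set passed 1.5-fold downward in 18 genes, 0.293% of the 6133, and upward in 8 genes, 0.130%. For the upward direction, 451 genes had at least 1 such probe set and 203 (45.0%) had all of them higher. Over all 6133 genes, whatever the size, 2829 (46.1%) had probe sets of 1 sign. Genes with more probe sets more easily have 1 past 1.5-fold and less easily share 1 sign, so these shares are not comparable across numbers of probe sets. With exactly 2 probe sets, 246 of 384 genes with at least 1 past 1.5-fold had both of the same sign, against 2038 of all 3538 (57.6%). Among the 3538 genes with exactly 2 probe sets the differences correlated at Pearson r = 0.23, and at 0.28 over the 669 pairs that were both in the brightest band. This correlation runs across genes, which are not replicates, and both axes share the 2 arrays.

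**Figure D2:**
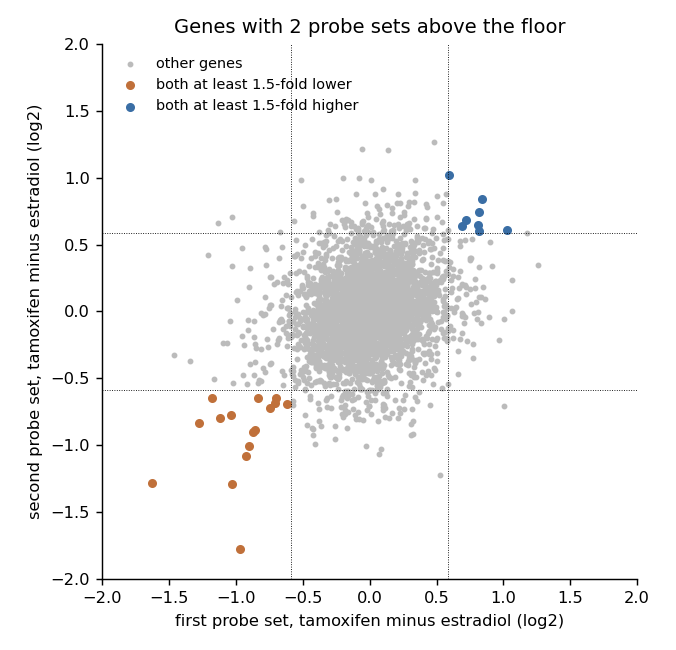
Tamoxifen minus estradiol (log2) of the first (horizontal) and second (vertical) probe set of each of the 3538 genes with 2 probe sets above the floor; dotted lines mark 1.5-fold. Most points form a round cloud about 0 (r = 0.23), and a few genes lie past 1.5-fold on both axes.

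In 18 genes every probe set above the floor passed downward; probe sets below it are not counted here. ICAM1, the adhesion molecule that binds leukocyte integrins, stood at 1.87, 2.02 and 0.95 in its 3 probe sets with estradiol and at 0.78, 0.68 and -0.24 with tamoxifen. Each of its probe sets was lower on the tamoxifen array, by a mean of -1.20, or 2.30-fold. PSG9, a pregnancy-specific glycoprotein secreted by the placenta, read 2.57 and 2.01 with estradiol against 0.94 and 0.73 with tamoxifen. AKR1C2, an aldo-keto reductase that inactivates steroid hormones, read 1.52 and 2.28 against 0.55 and 0.50. Both genes were above the baseline on both arrays and lower with tamoxifen, although their probe sets may also catch close relatives. SULT1C2, a cytosolic sulfotransferase, read 1.88 and 1.86 against 0.85 and 0.57. MUC1, a membrane mucin, differed by -1.12 and -0.80. SULT1C2 stayed above the baseline with tamoxifen in both probe sets, MUC1 in only 1 of them.

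IFIT2, an interferon-induced RNA-binding protein, differed by -1.28 and -0.84, and OASL, an oligoadenylate synthetase-like antiviral protein, by -0.90 and -0.87. H2BC5, a gene for histone H2B, differed by -1.08 and -0.93 and went from near the baseline with estradiol (-0.01 and 0.27) to below it (-0.93 and -0.80). ARSD, an arylsulfatase, was lower in all 4 of its probe sets above the floor, by -0.91 to -0.61, but its 8 probe sets in all reached up to 0.31. KLHL12, the substrate adaptor of a cullin ubiquitin ligase, differed by -0.83 and -0.65, and AHNAK2, a very large scaffold protein, by -0.75 and -0.72. The uncharacterised C11orf71 differed by -1.18 and -0.65. Non-coding RNAs among the leading 15 were CNN3-DT, transcribed next to the calponin gene CNN3, at -1.01 and -0.90, and MORF4L2-AS1 at -0.89 and -0.86. AKR1C1, at -1.04 and -0.77, completed the 15, and ZNF114, DORIP1 and LINC00662 were the 3 smallest of the 18.

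The 8 genes at least 1.5-fold higher in every probe set above the floor had smaller differences and were of mixed function. Probe sets below the floor did not all go the same way. The lowest was -0.31 for CADM3, -0.22 for MRPL19, -0.21 for CELF4 and -0.16 for CCAR1. Those of CCDC150 and GLCCI1 were all higher. HAS2, which makes the matrix polymer hyaluronan, stood at -1.23 and -1.49 with estradiol and at -0.39 and -0.65 with tamoxifen. Its probe sets differed by the same 0.84, and both arrays were below the baseline. CHORDC1, a partner of the chaperone HSP90, differed by 1.03 and 0.61 and was at the baseline with estradiol. CADM3, an adhesion molecule, differed by 1.02 and 0.59. CELF4, an RNA-binding protein, differed by 0.81 and 0.65. CCAR1, a coactivator of transcription, differed by 0.82 and 0.60, and CCDC150, a coiled-coil protein, by 0.82 and 0.74. MRPL19, a mitochondrial ribosomal protein, differed by 0.72 and 0.68, and GLCCI1, a glucocorticoid-induced gene, by 0.69 and 0.64. In none of these 8 did the higher values exceed 2-fold in every probe set.

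**Figure D3:**
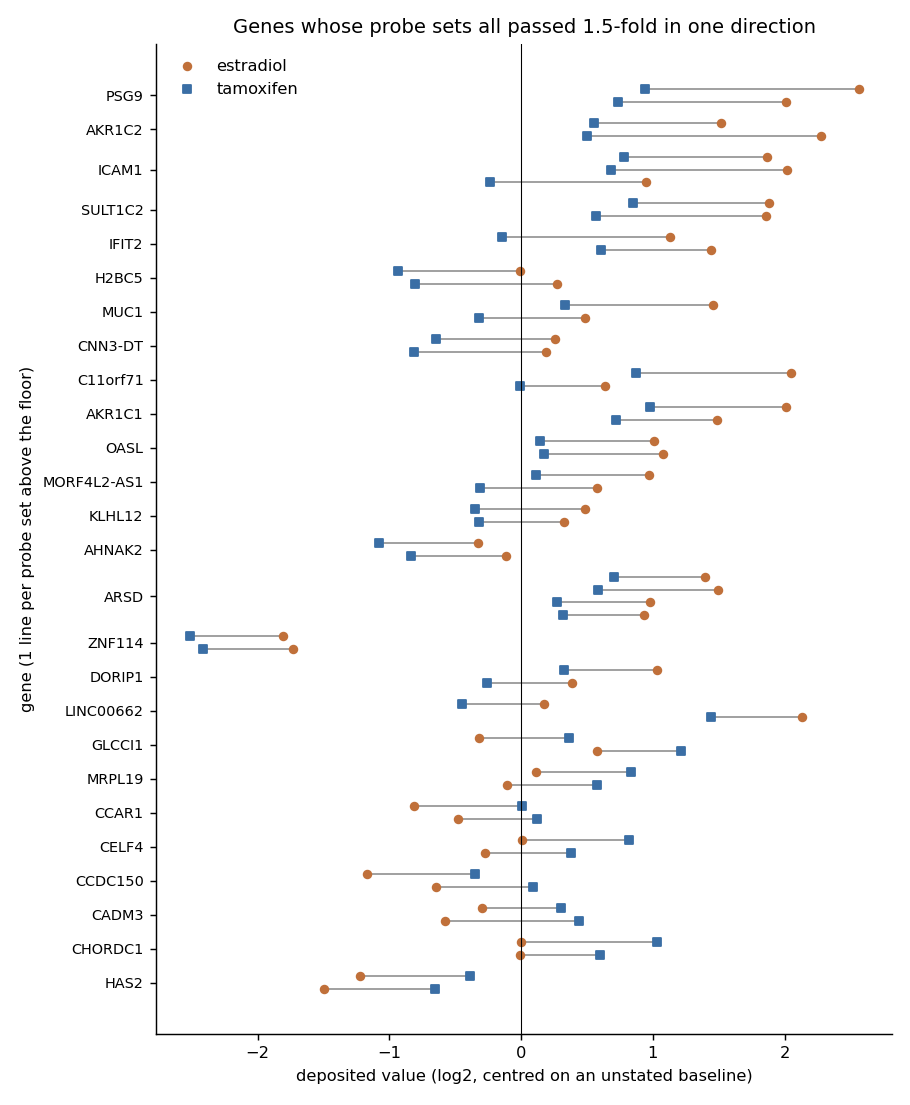
Deposited values (log2, centred on an unstated baseline, horizontal) with estradiol (circles) and tamoxifen (squares) for every probe set above the floor of the 26 genes whose probe sets all differed by at least 1.5-fold in 1 direction. In the upper 18 genes every square lies left of its circle, ICAM1 by 1.09 to 1.34, and in the lower 8 every square lies to the right.

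Some larger differences rest on 1 probe set above the floor. ALPP stood at 1.71 with estradiol and at -0.36 with tamoxifen, 4.19-fold apart. CTHRC1, a secreted glycoprotein of the matrix, stood at 2.31 and 0.82, 2.82-fold apart. C6orf141, an uncharacterised gene, stood at -0.73 and -2.07, and MAP3K7CL at 0.29 and -1.03. The first pair was above the baseline with estradiol, whereas C6orf141 was below it on both arrays. ATP13A4, a transport ATPase, differed by -1.35, but its other 2 probe sets, below the floor, read -0.13 and 0.47. H2AC6 and CST1, described below, complete the protein-coding genes among the 10 largest of this kind downward. The others were the non-coding LOC105377276 at -1.37, PRKG1-AS1 at -1.37 and USP27X-DT at -1.36.

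Upward, CFAP69 had the largest difference of the genes with 1 probe set above the floor, 1.34. It stood at -0.57 with estradiol and 0.77 with tamoxifen, and its dimmer probe sets were higher by 0.40 and 0.39. FZD3, a frizzled receptor for Wnt ligands, stood at -0.05 with estradiol and 1.11 with tamoxifen. Its 3 dimmer probe sets were also higher, by 1.03, 0.69 and 0.27. Of the 12 frizzled probe sets above the floor it was the 1 that passed. WFDC12, a small secreted protease inhibitor, stood at -0.91 and 0.29, DUSP15, a phosphatase, at -0.30 and 0.88, and SNX8, a sorting nexin, at -0.48 and 0.64. These 3 crossed the baseline between the arrays. GPR62, an orphan receptor, differed by 1.14 and CAPN3, a calcium-dependent protease, by 1.04. Both dimmer probe sets of CAPN3 were slightly lower, at -0.09 and -0.18. Non-coding RNAs in the same 10 were FZD10-AS1 at 1.22, LINC03018 at 1.20 and LINC01296, far below the baseline on both arrays (-3.18 and -2.12). When brightness was read from all 3 columns, FZD3, DUSP15, CAPN3, CFAP69 and LINC03018 no longer lay above the floor, nor did ATP13A4 in the downward direction.

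Interferon-stimulated genes encode antiviral proteins, and many of their promoters hold the interferon-stimulated response element (GAAA, any 2 bases, GAAA). Of 43 such genes that cleared the floor, 11 were lower by 1.5-fold or more with tamoxifen (2.61% over all genes), none was higher (2.04%), and 37 lay below 0. The list median was -0.24, against -0.02 over all genes. In the 250 bases upstream of the start site, 4 of the 7 lower genes with a RefSeq promoter held the element on either strand, as did 21 of the 34 members with one and 3.07% of all 27305 promoters. Windows of 60 bases from RefSeq on GRCh38.p14 are shown for 3 of the 4 lower genes that hold it, to show how the element is spelled there, with the element in capitals. ISG15 lies at chr1:1013364-1013423 and IFIT1 at chr10:89392494-89392553, both on the plus strand, and CXCL10 at chr4:76023685-76023744 on the minus strand. In ISG15 the capitals hold 2 overlapping matches, and in IFIT1 2 matches on the other strand.
ISG15: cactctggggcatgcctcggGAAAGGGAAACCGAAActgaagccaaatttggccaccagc
IFIT1: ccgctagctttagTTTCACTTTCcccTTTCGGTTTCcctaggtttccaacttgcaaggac
CXCL10: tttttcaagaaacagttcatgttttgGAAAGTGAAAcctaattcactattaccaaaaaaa
A match describes the letters and is neither a site shown to be bound nor a cause. Over all lower genes with a promoter the element was in 9 of 251 (3.59%), and over the higher ones in 7 of 219 (3.20%).

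IFIT1, which binds foreign RNA caps, stood at 1.11 with estradiol and 0.33 with tamoxifen. TRIM22, an antiviral ubiquitin ligase, stood at 2.56 and 1.84, and the chemokine CXCL11 at 2.69 and 1.97. Each of these was above the baseline on both arrays and lower with tamoxifen. OAS2, a sensor of double-stranded RNA, stood at 1.25 and 0.59, DDX60, a helicase, at 1.47 and 0.81, and RIGI, the receptor for viral RNA, at 1.15 and 0.51. XAF1 differed by -0.70, CXCL10 by -0.66 and ISG15, a ubiquitin-like modifier, by -0.59. MX1, a GTPase that blocks viruses, stood just inside 1.5-fold at -0.57. Other members hardly differed, among them the regulator IRF1 at -0.07 and the tethering protein BST2 at 0.13. Over the IFIT family, 4 of 7 probe sets above the floor were at least 1.5-fold lower and 6 lay below 0. The share over all genes was 2.61%, counted by gene and not by probe set.

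NF-kB is a dimeric transcription factor held in the cytoplasm by inhibitors and released by inflammatory signals, and many of its targets are cytokines and adhesion molecules. Of 35 members and targets above the floor, 7 were lower with tamoxifen, against 2.61% over all genes, none was higher, against 2.04%, 32 lay below 0 and the median was -0.29. Without probe set types that can react with several transcripts, the median was -0.17 over 24 genes. Among the subunits, RELB stood at 0.79 and 0.05, NFKB1 differed by -0.51, and all 5 were below 0. The 7 inhibitors had a median of -0.14 and none passed 1.5-fold, with NFKBIA at -0.34 and TNFAIP3 at -0.07. The 11 cytokines and chemokines had a median of -0.33, and 4 passed.

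IL6, an inflammatory cytokine, stood at 2.49 with estradiol and 1.68 with tamoxifen. IL1A, another inflammatory cytokine, stood at 1.01 and 0.18, and the neutrophil chemokine CXCL2 at 1.19 and 0.53. These cytokines were above the baseline on both arrays. The neutrophil chemokine CXCL8 read 3.12 and 0.77 in its 2 probe sets against 2.13 and 0.36, differences of -0.99 and -0.41. PTGS2, the inducible enzyme of prostaglandin synthesis, was less even, at -1.34 in 1 probe set and -0.37 in the other. IL11 went the other way at 0.47 without passing 1.5-fold. The letters of an NF-kB element (GGNNTTTCC, either strand) were found upstream of 4 of 6 lower members with a promoter, 14 of 29 members and 5.48% of all promoters. Over all lower genes the share was 9.56% of 251 and over all higher genes 5.02% of 219. The windows are shown for the members with the largest differences of this kind, ICAM1 at chr19:10270908-10270967 and IL6 at chr7:22727102-22727161, both on the plus strand, and CXCL8 at chr4:73740452-73740511, also plus.
ICAM1: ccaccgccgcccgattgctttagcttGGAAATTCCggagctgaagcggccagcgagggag
IL6: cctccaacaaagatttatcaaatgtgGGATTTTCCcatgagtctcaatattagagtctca
CXCL8: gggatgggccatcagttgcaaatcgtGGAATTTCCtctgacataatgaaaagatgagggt
The matches began 186, 72 and 91 bases before the start site.

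ATF4 is the transcription factor of the integrated stress response, and the unfolded protein response is the programme that relieves a crowded endoplasmic reticulum. Of 38 genes on this list, 6 were lower (2.61% over all genes), none was higher (2.04%) and the median was -0.17. The genes that passed were all stress factors of the ATF4 arm, a division of the list made after its values were seen. CHAC1, which degrades glutathione, stood at 1.23 with estradiol and 0.22 with tamoxifen. SESN2, a sestrin that restrains growth signalling, differed by -0.70, and PPP1R15A, which turns the response off, by -0.65. The transcription factors ATF3 and DDIT3 and the pseudokinase TRIB3 differed by -0.63, -0.62 and -0.61. All 11 genes of this arm were below 0, with a median of -0.61, and ATF4 itself differed by -0.40.

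Of the chaperones and amino acid genes of the same list none passed 1.5-fold. The 13 endoplasmic reticulum chaperones had a median of -0.14, 10 of them lay below 0, and the master chaperone HSPA5 differed by 0.01. The 9 genes of amino acid synthesis and transport had a median of -0.03 with 6 below 0, the lowest being the cystine transporter SLC7A11 at -0.50. PHGDH and PSAT1, which open serine synthesis, were higher by 0.52 and 0.44, and ASNS, asparagine synthetase, differed by -0.05. A CARE element, where ATF4 and C/EBP proteins bind together (TGATGNAA, either strand), was found upstream of 4 of 35 members, of 2 of the 6 lower ones and of 3.19% of all promoters. The window of CHAC1, the gene with the largest difference, lies at chr15:40953236-40953295 on the plus strand.
CHAC1: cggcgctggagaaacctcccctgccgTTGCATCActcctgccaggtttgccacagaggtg

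Histone genes, which encode the proteins that package DNA, differed in both directions. Of 26 above the floor, 9 were lower (2.61% over all genes), 1 was higher (2.04%) and the median was -0.27. Without the cross-reacting probe set types it was -0.00 over 16 genes, since many histone probe sets can catch several near-identical copies, and the members are reported as uncertain for that reason. Most of the lower genes belonged to H2B. H2BC21 stood at 0.75 with estradiol and -0.44 with tamoxifen, H2BC9 at -0.44 and -1.22, H2BC6 at -0.31 and -0.98, and H2BC4 at -0.26 and -0.88. Of the 11 H2B probe sets above the floor 9 lay below 0 and 7 were at least 1.5-fold lower. Of the 18 H2A probe sets 9 lay below 0 and 1 was at least 1.5-fold lower. That 1 was H2AC6, at 0.22 and -1.34, 2.94-fold apart. Among linker histones H1-2 differed by -0.94 and H1-10 by -0.76, whereas H1-4 was the only histone gene to pass upward, at 0.70.

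H2AC6 and H2BC4 are neighbours that are read in opposite directions from start sites 246 bases apart on chromosome 6. Their upstream windows are therefore the same stretch, chr6:26124016-26124075, read from the plus strand for H2AC6 and the minus strand for H2BC4. It holds 1 octamer (ATTTGCAT, either strand), the element bound by OCT1 in H2B promoters.
H2AC6: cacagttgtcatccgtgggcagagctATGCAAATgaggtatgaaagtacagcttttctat
H2BC4: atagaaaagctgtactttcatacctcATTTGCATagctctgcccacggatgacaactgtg
H2BC9: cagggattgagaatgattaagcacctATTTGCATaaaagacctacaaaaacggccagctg
H2BC9 lies at chr6:26251539-26251598 on the plus strand and is shown as a lower H2B gene outside that pair. The octamer was in 5 of the 9 lower histone promoters, 11 of 26 histone promoters and 1.66% of all promoters. The 2 neighbours differed by -1.56 and -0.62.

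Several gene families were lower as families of close relatives, whose probe sets can read each other's RNA. The AKR1C reductases, which act on steroids and prostaglandins, were lower in all 5 probe sets above the floor. AKR1C3 stood at 2.73 with estradiol and 1.94 with tamoxifen, and AKR1C1 read 2.01 and 1.49 against 0.98 and 0.72. The 6 AKR1C probe sets below the floor lay between -0.31 and 0.30. The upstream stretches of AKR1C1 and AKR1C2 share an unbroken run of 245 of 250 bases, against 12 for AKR1C1 and AKR1C3. On the list of NRF2 targets, the antioxidant programme to which these genes belong, 4 of 21 genes were lower and 1 was higher, against 2.61% and 2.04% over all genes. HMOX1, heme oxygenase, stood at 0.30 and -0.36. GCLM, the modifier subunit of the enzyme that opens glutathione synthesis, was higher at 0.61, its catalytic partner GCLC by 0.48, and NQO1 differed by -0.18. An antioxidant element (TGACNNNGC, either strand) was upstream of 4 of 19 members, none of the 3 lower ones, and 11.03% of all promoters.

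Cystatins are secreted inhibitors of cysteine proteases. Of their 10 probe sets above the floor 6 were at least 1.5-fold lower and 1 was at least 1.5-fold higher. Counted by gene, the shares over all genes were 2.61% and 2.04%. Among the lower ones was CST7 at -0.78, which is not on the protease list below. The higher one was of CST11, at -0.40 with estradiol and 0.39 with tamoxifen, a difference of 0.79, and its dimmer probe set read -0.36. CST1 stood at 4.03 with estradiol and 2.57 with tamoxifen, CST4 at 3.27 and 2.14, and CST2 at 3.26 and 2.22. These 3 near-identical salivary-type genes were far above the baseline on both arrays. CST6, a more distant relative, stood at -0.30 and -1.02. CST3, cystatin C, was lower in its brightest probe set (-0.59) and slightly higher in the other 2 (0.18 and 0.14). With MMP15, a membrane metalloproteinase at 0.46 and -0.40, and PLAT, tissue plasminogen activator at 1.01 and 0.32, they made 7 lower and no higher genes of 30 matrix proteases and inhibitors, against 2.61% lower and 2.04% higher over all genes. The median of that list was -0.08.

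Placental-type genes were divided. ALPP and PSG9 were lower, as above. Of 9 PSG probe sets above the floor 4 passed 1.5-fold downward and 7 lay below 0, with a range of -1.63 to 0.55. Counted by gene, 2.61% of all genes passed downward. The 3 other alkaline phosphatase probe sets above the floor lay between -0.06 and 0.29. PAPPA, the protease that cleaves an IGF-binding protein, was higher, with its probe sets in the brightest band at 0.61 and 0.94 with estradiol and 0.89 and 1.86 with tamoxifen. Over all 15 placental-type genes the median was -0.10.

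**Figure D4:**
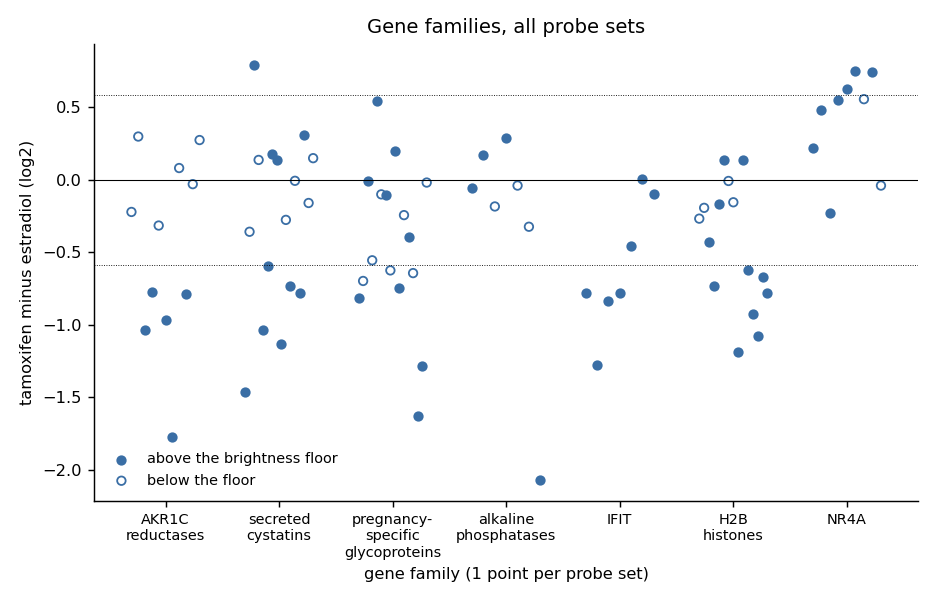
Tamoxifen minus estradiol (log2, vertical) for each probe set of 7 gene families (horizontal), filled above the brightness floor and open below it; dotted lines mark 1.5-fold. All 5 filled AKR1C points and 7 of 11 filled H2B points lie past the lower line, and 3 of 7 filled NR4A points lie past the upper one.

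The cAMP list had 2 of 18 genes at least 1.5-fold higher and the BMP and TGF-beta list 1 of 34, against 2.04% over all genes, so the second count is near the background. NR4A2, a nuclear receptor induced early by cAMP, read 0.32, 0.57 and 0.50 with estradiol and 0.87, 1.20 and 1.25 with tamoxifen in its 3 probe sets. NR4A3, which was above the floor only by the 2-column reading, stood at -0.60 and 0.15, and NR4A1 differed by 0.16. NR4A2 and NR4A3 were the 2 higher genes. No cAMP target was at least 1.5-fold lower, but 6 of the 18 lay below 0. The list median was 0.05. BMP2, a secreted growth factor of the TGF-beta family, read 1.20 and 1.49 in its 2 probe sets against 2.10 and 2.01, and was the only one of 34 genes on its list to pass. ID1, a target of BMP signals that inhibits helix-loop-helix factors, stood at -1.79 and -1.32, and ID3 at -1.38 and -1.07. SMAD6, an inhibitor of the pathway, was higher by 0.47, whereas SMAD7, another, was lower by -0.37. All 8 ligands had a median of 0.03, the 6 receptors 0.15 and the 7 SMAD proteins 0.18.

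Genes of the G1/S transition and DNA replication had the highest median of the growth lists, 0.11, with 36 of 47 above 0 and none past 1.5-fold. CCNE2, a cyclin that starts S phase, was higher by 0.49, and CCNE1 was lower by -0.23. The 6 subunits of the MCM helicase had a median of -0.00. Mitotic genes had a median of 0.05. Ribosomal proteins stood at 0.06 with 44 of 59 above 0. RPL27A and RPL10L passed upward at 0.84 and 0.79, 3.39% of the 59 against 2.04% over all genes, so the count is near the background. RPLP2 lay at -0.57.

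Some lists of metabolism and antigen presentation leaned lower, with few members past 1.5-fold. Others did so hardly at all. Hypoxia and glycolysis, the respiratory chain and MHC class I each had a median of -0.05, against -0.02 over all genes. Cholesterol synthesis and SREBP target genes had a median of -0.21, with 21 of 26 below 0 and none past 1.5-fold, and -0.06 over 16 genes without the cross-reacting types. HMGCS1, which makes the sterol precursor HMG-CoA, differed by -0.53 and SCD, a fatty acid desaturase, by -0.45. Autophagy and lysosome genes had a median of -0.16 with 24 of 29 below 0, and CTSD, a lysosomal protease, differed by -0.33. Metallothioneins, zinc-binding proteins, were lower in all 6 genes above the floor, by -0.20 to -0.39. Every probe set above the floor of MT1E, MT1X, MT1G and MT1H was of a cross-reacting type. These genes may therefore share a signal and are not separate readings. Of the MHC class II chains, which present peptides to helper T cells, 8 of 9 were below 0. At least 1.5-fold lower were 2 of the 9, against 2.61% over all genes. This subset was divided off after its values were seen. The full class II list of 15 genes had a median of -0.13, with 12 below 0 and 2 at least 1.5-fold lower. Its regulator CIITA, which switches on the class II genes, went the other way, at 0.19 with estradiol and 0.77 with tamoxifen, and its 2 dimmer probe sets were higher by 0.54 and 0.22. HLA-DMB stood at 1.83 and 1.24, and HLA-DRA, far above the baseline, at 4.31 and 3.77. HLA-DQA1 differed by -0.63 in its brightest probe set and by 0.12 in its dimmer one.

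Genes known to follow estrogen in receptor-positive cells showed no common direction. Of 23 estrogen-induced genes above the floor 12 were above 0 and 11 below, with a median of 0.07. TPD52L1 alone passed, at 0.47 with estradiol and -0.22 with tamoxifen. MYC, a growth factor-responsive transcription factor, differed by -0.38, CCND1, cyclin D1, by 0.23 and STC2, a secreted glycoprotein, by 0.46. Among 12 estrogen-repressed genes NR2F1, an orphan nuclear receptor, was higher at 0.90. For ESR1, 1 of 9 probe sets passed the floor, at -0.02 and -0.77, and its other probe sets differed by -0.28 to 0.48. ESR2 had 2 of 6 above it, which differed by 0.59 and -0.03. GPER1 differed by -0.36 as the mean of 2 probe sets. PGR, the progesterone receptor and a classical estrogen target, had none of 2 above the floor.

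The remaining lists had few or no members past 1.5-fold. Immediate early genes, the first to answer growth signals, had a median of -0.12 and only ATF3 passed, with EGR1 at -0.42 and FOS at -0.19. Of 20 heat shock genes 2 were higher, CHORDC1 and BAG2 (0.61), against 2.04% over all genes. The 1 lower gene, against 2.61%, was DNAJB4, which read -1.06 in its brightest probe set and 0.07 in the other. No gene passed among 24 of the ERK feedback list, 40 of hypoxia and glycolysis, 19 of the circadian clock, 9 of the aryl hydrocarbon receptor pathway, 17 of the glucocorticoid response, 25 nuclear receptor coregulators, 24 collagens or 36 of the respiratory chain. Of 23 p53 targets SESN2 passed, also counted under ATF4. CDH6, a cadherin, was lower at -0.62, ITGB8, an integrin, higher at 0.67, PIK3IP1, an inhibitor of PI3 kinase, lower in its brightest probe set at -0.82 and SESN3 higher at 0.59. In all, 845 genes of the lists were above the floor, of which 53 were lower and 15 higher, against 2.61% and 2.04% over all genes. The lists were drawn up with earlier results of these data known, so these shares are no measure of how unusual the lists are.

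**Figure D5:**
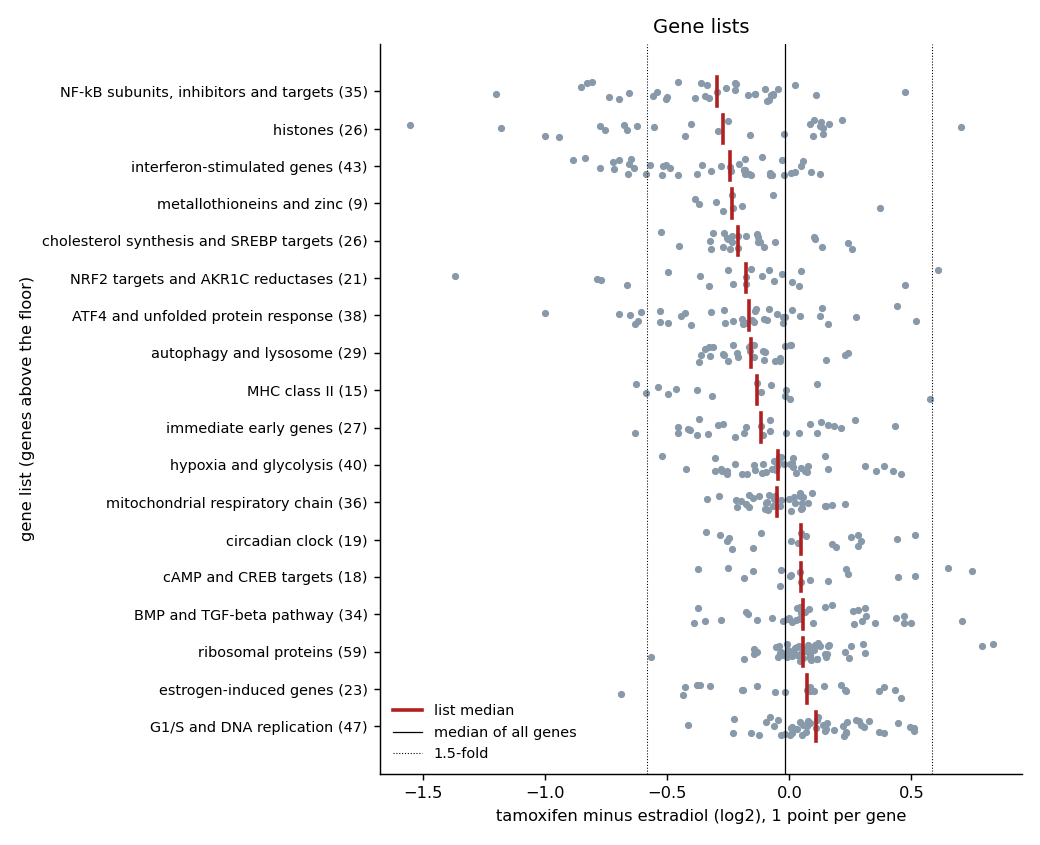
Tamoxifen minus estradiol (log2, horizontal), 1 point per gene above the floor, for 18 gene lists (vertical); red bars are list medians, the solid line is the median of all genes (-0.02) and dotted lines mark 1.5-fold. Medians run from -0.29 for NF-kB to 0.11 for G1/S genes, and points past the lower line outnumber those past the upper one.

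Non-coding genes passed more often than protein-coding ones. Of 925 long non-coding RNAs above the floor 50 were lower (5.41%) and 28 higher (3.03%), against 2.35% and 1.94% of 12367 protein-coding genes. These shares were not split by brightness or by number of probe sets. Genes in the dimmer band passed more often, 3.06% lower and 2.42% higher, against 2.24% and 1.72% in the brightest band. Genes named as divergent or antisense transcripts, a group chosen after its values were seen, had 32 of 393 lower (8.14%) and 13 higher (3.31%). For 36 of those that passed, the partner gene was above the floor too. None of the 36 partners passed in the same direction, and 16 had the same sign. Over all genes 2.61% were lower and 2.04% higher, so the count of partners that passed is near the background. PRKG1-AS1 differed by -1.37 and its partner by 0.23, and USP27X-DT by -1.36 and its partner by 0.19. In 13 genes, probe sets passed in opposite directions. MALAT1, an abundant nuclear RNA, spanned -1.28 to 0.83 over 9 probe sets above the floor. PTCH1, the hedgehog receptor, spanned -1.03 to 0.71, GPRC5B, a membrane receptor, -1.14 to 0.66, and ASPH, a hydroxylase, -0.85 to 0.81 over 7. A single value does not describe such genes.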

How the data were processed

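Deposited log2 values of 54675 Affymetrix probe sets were used, 1 column per array. RMA is named in the submitters' processing notes, with no version; neither the baseline on which the authors centred the values nor any later step is given in the sources used here. Probe sets with several symbols (1801) or none in GEO's platform annotation (11777) were left out. Brightness was read from the binary steps of the stored numbers in the 2 columns: probe sets at a level of 4 or more were kept. Probe sets in a gene's brightest band were averaged. A gene passed at 1.5-fold. No test was run, since each side has 1 array. Named genes were the 15 largest in each direction with all probe sets past 1.5-fold, the 10 largest with 1 probe set above the floor, up to 6 members per list with every passing member of lists with 8 or fewer, and ESR1, ESR2, GPER1, PGR, GAPDH and ACTB; other members, including regulators that hardly differed, and genes with opposing probe sets were named after their values were seen. Members and lists were chosen with earlier results of these data known. Promoters came from RefSeq (GRCh38.p14), without chromosome 8. Python 3.11.15, pandas 2.3.3 and matplotlib 3.10.9 were used, and the steps were tested on simulated data. The alternatives were another floor, probe set type, centring, gene value and fold.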

Additional observations from a re-analysis of the deposited data

How the results depend on the processing

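No paired analysis was possible because each group has 1 array. Lower genes outnumbered higher ones under all 8 other settings. In the brightest band alone 129 genes were higher and 168 lower, with 3 and 3 in every probe set. Without a floor 499 were higher and 599 lower, with 28 lower in every probe set. Without cross-reacting probe set types 256 were higher and 284 lower, 52.6% of those that passed, and 8 genes were lower in every probe set. Centring within brightness bands gave 293 higher and 341 lower, 53.8%. With the probe set of smallest difference the lower share was 58.6%. At 2-fold 19 were higher and 45 lower, 70.3% of those that passed against 56.2% at 1.5-fold, with 0 and 3 in every probe set. Bands read from 3 columns, an alternative chosen after seeing the data, left 12124 genes, 195 higher and 276 lower. Taking a gene's probe set with the smallest difference turned DNAJB4 to 0.072, ESR2 to -0.033, CST3 to 0.14, HLA-DQA1 to 0.12 and PIK3IP1 to 0.33. DNAJB4 (0.072) and ESR2 (-0.033) also turned without cross-reacting types, and DNAJB4 (0.072) with 3 columns. Each of these rests on fewer or other probe sets of the gene. PTGS2 was -0.37 without cross-reacting types and with 3 columns, and BMP2 0.52 with 3 columns. Of named genes that passed, IL1A, NR4A3, RPL10L, SESN3, ESR2, ATP13A4, CAPN3, FZD3, DUSP15, LINC03018 and CFAP69 fell below the 3-column floor. The 1 array a side limits every value.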
